A study of Mus musculus with 3 samples.

Results

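LAG-3, TIGIT, TIM-3 and 6 related receptors and ligands that restrain lymphocytes, or compete with those that do, were followed at gene and transcript level in mouse regulatory T cells. The 9 genes were chosen by family, as Lag3, Tigit, Havcr2, Cd160, Cd96, Cd226, Cd200, Cd200r1 and Vsir, and were matched by symbol through GENCODE M21 to 9 of the 55536 genes of the larger gene table. All 9 were present in each of 3 RNA-seq libraries. The libraries hold polyadenylated RNA of primary cells labelled as activated regulatory T cells, taken from a male adult mouse of 9 weeks whose strain is given as Foxp3GFP-DTRCD4CreERT2R26tdTomato. They are technical replicates 1, 2 and 3 of 1 biological replicate, so there is 1 group, with no resting, untreated or other population beside it, and the labels state neither what activated the cells nor how they were sorted. The strain name carries a Foxp3-linked GFP and diphtheria toxin receptor allele, a tamoxifen-dependent Cre driven by CD4 and a tdTomato reporter, and all 3 libraries share them. Each ± below is an SD over the 3 libraries (n = 3). SDs and p-values measure only how far these libraries of a single biosample lie apart, a spread that may be technical.

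The libraries held 20783676, 21206219 and 18496690 estimated counts. A gene without a count may still be at up to 0.144, 0.141 and 0.162 CPM (counts scaled to the library total) in the same order, by counting error alone. Of the regulatory T cell markers, 5 of 5 reached 1 TPM (a transcript level scaled for length and depth) in every library, with a summed level of 1754 to 1959 TPM. All 4 T cell markers did so too, with a sum of 5300 to 5887 TPM. The markers of other cells were lower in sum. The 8 B cell markers summed to 63.3 to 72.8 TPM (5 of 8 at 1 TPM or more), the 11 myeloid and dendritic markers to 24.2 to 37.6 TPM (5 of 11, led by Lyz2, with S100a8 at no count) and the 6 natural killer and innate lymphoid markers to 3.65 to 4.59 TPM (2 of 6, led by Klrb1c). The 2 CD8 T cell markers summed to 18.5 to 24.3 TPM (1 of 2, led by Cd8b1). The 5 gamma-delta T cell markers summed to 11.2 to 15.4 TPM (4 of 5, with Sox13 at no count). Of 8 stromal and endothelial markers, 1 (Pecam1) was at 1 TPM or more throughout, while no count fell on Pdgfra or Pdgfrb, and the sum was 92.9 to 106 TPM. Pecam1 alone, at 97.1 ± 6.61 TPM, made nearly all of that sum. The 5 mast cell and basophil markers summed to 0.18 to 0.44 TPM, none reached 1 TPM in every library, and Mcpt4 had no count. The 5 erythroid markers summed to 909 to 1270 TPM, led by Hba-a2. The globin genes made nearly all of this sum, and Alas2 was at 6.80 ± 2.31 TPM. In RNA pooled over cells, fewer cells of a type and less RNA per cell cannot be told apart.

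These proteins are cell-surface molecules of the immunoglobulin superfamily that adjust how strongly a T cell responds to its antigen. LAG-3 binds MHC class II and other ligands, TIM-3 (encoded by Havcr2) binds galectin-9 and several other partners, and TIGIT and CD96 share the ligand CD155 (Pvr) with the activating receptor CD226, so that the balance of the 3 receptors matters. CD160 shares the ligand HVEM (Tnfrsf14) with BTLA, the ligand CD200 acts through CD200R1 on other cells, and VISTA (Vsir) is an inhibitory molecule of resting T cells and myeloid cells. Regulatory T cells are known to carry LAG-3 and TIGIT as part of their suppressive equipment.

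All 9 genes reached 1 TPM in every library, but their levels ranged from 3.67 TPM for Havcr2 to 230.0 TPM for Vsir. The same held for 47.4% of the 21951 protein-coding genes. In the larger gene table, from high to low, the order of mean levels was Vsir, Cd96, Cd200, Cd226, Tigit, Cd200r1, Cd160, Lag3 and Havcr2. Vsir, Cd96 and Cd200 lay above 100 TPM on average, and Lag3 and Havcr2 lay below 10 TPM. The median of the 9 was 74.8 TPM, beside 26.15 TPM over the protein-coding genes at 1 TPM or more in every library. The largest step between neighbours was from Cd160 to Lag3, 4.80-fold, or 2.26 ± 0.33 on the log2(TPM + 0.1) scale. Each gene exceeded the next in 3 of 3 libraries. The ranges over libraries nonetheless overlapped for Cd200 and Cd226, for Cd226 and Tigit, and for Lag3 and Havcr2. Within libraries the step was 0.25 ± 0.05 for Cd200 over Cd226, well beyond its SD, and 0.36 ± 0.29 for Cd226 over Tigit and 0.53 ± 0.43 for Lag3 over Havcr2, each a little over 1 SD. With 3 libraries an exact sign-flip permutation test of such a step cannot go below p = 0.25 (two-sided), so none was run. The order depended on the table. The counts of the second, smaller gene table were divided by the gene length that the larger table lists for each library. By that measure Cd96 ranked 1, Tigit 2 and Vsir 3, ahead of Cd200, Cd226, Cd200r1, Cd160, Lag3 and Havcr2. It shares those lengths with the larger table and so is not independent of it. The log2 step from Vsir to Cd96 turned from 0.27 to -1.10, and that from Cd160 to Lag3 shrank to 1.24, with a larger step of 1.89 from Lag3 to Havcr2. That from Cd200 to Cd226 shrank from 0.25 to 0.12.

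**Figure D1:**
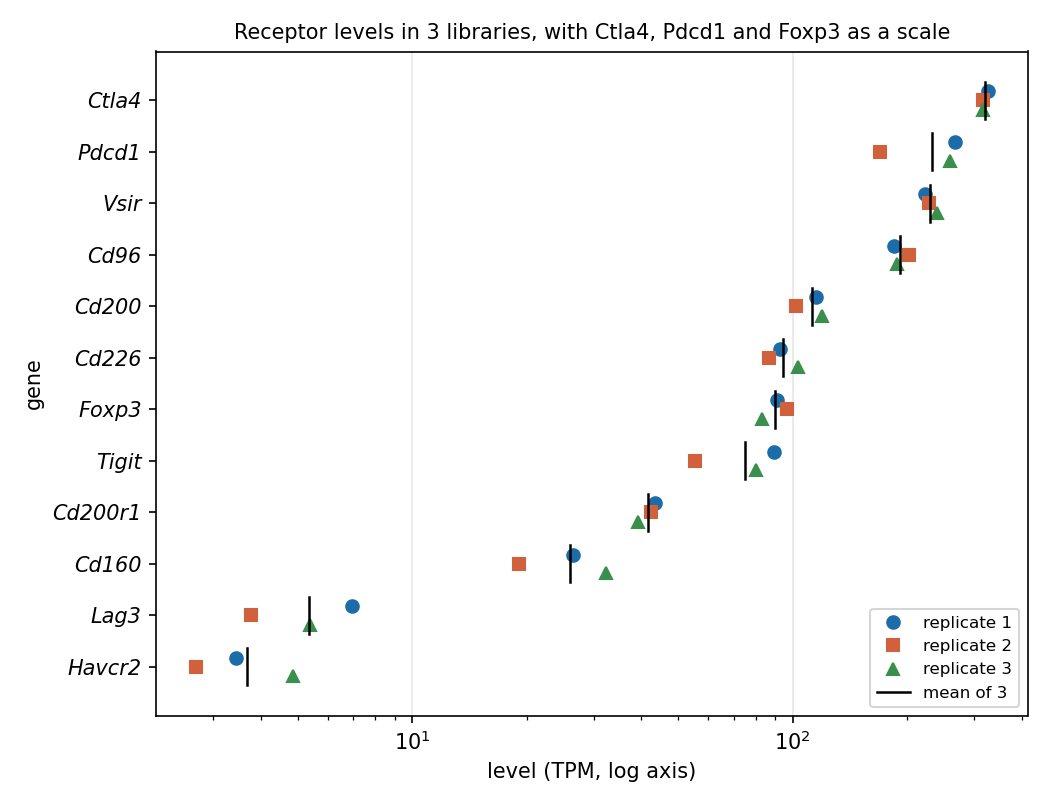
Level in TPM (log axis) of the 9 receptor genes and of Ctla4, Pdcd1 and Foxp3 in each library, with points for the 3 libraries and a bar at their mean. In this larger gene table Vsir and Cd96 lie near 200 TPM, while Lag3 and Havcr2 lie under 7 TPM in all 3 libraries.

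Lag3, the CD4-related receptor for MHC class II, was one of the 2 low genes. Its level was 6.94, 3.77 and 5.38 TPM in replicates 1, 2 and 3 (5.36 ± 1.59 TPM), from 179, 102 and 124 estimated counts. Replicate 1 was high and replicate 2 low. The 95% Poisson intervals, which cover counting error only, were 7.40 to 9.97, 3.92 to 5.84 and 5.58 to 7.99 CPM in the same order, so those of replicates 1 and 2 did not overlap. The gene (ENSMUSG00000030124.2) lies at chr6:124904361-124911705 of mm10 on the minus strand, 16139 bases from Cd4, its structural relative and the coreceptor of helper T cells. Cd4 was at 264 ± 20.6 TPM. All reads assigned to Lag3 went to Lag3-201, the 8-exon coding transcript of 521 codons, and the short noncoding Lag3-202 was listed at 0 in each library.

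Havcr2, which encodes TIM-3, was the lowest of the 9 in both gene tables, at 3.45, 2.70 and 4.86 TPM (3.67 ± 1.10 TPM). Replicate 3 was highest and replicate 2 lowest. In CPM, replicate 3 stood at 8.06 (95% Poisson interval 6.81 to 9.46) and replicate 2 at 4.72 (3.84 to 5.74), and these intervals did not overlap, while replicate 1 lay between them at 5.87 (4.87 to 7.01). The gene (ENSMUSG00000020399.14) lies at chr11:46454935-46481255 on the plus strand. In replicates 1 and 2 every read was assigned to Havcr2-201, which has 281 codons. In replicate 3, 39.6% of the level, or 56.42 estimated counts, was assigned to Havcr2-202, which lacks 147 bases inside the second exon and so has 232 codons. The deposited lower credibility bound for that transcript in replicate 3 was 0.0728 TPM, beside its level of 1.93 TPM. Its upper bounds in replicates 1 and 2 were 0.733 and 1.30 TPM. The ranges overlap, so its absence from replicates 1 and 2 is not shown. The forms differ at the following join, shown 5′ to 3′ from the GENCODE M21 transcripts, with capitals for bases that only Havcr2-201 holds. The left edge is chr11:46456270-46456299, the right edge is chr11:46456417-46456446, and the join runs from the first to the last of these positions.
Havcr2-202 join: gcttatgtgtttgagaaatccagcagatac
Havcr2-201 left edge: gcttatgtgtttgagGTTGGTAAGAATGCC
Havcr2-201 right edge: AATGTGACATATCAGaaatccagcagatac

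The receptors of the CD155 axis were all well above the low pair. Tigit, the inhibitory member with the highest affinity for CD155, was at 89.06, 55.42 and 79.89 TPM (74.8 ± 17.4 TPM), high in replicate 1 and low in replicate 2. Cd96, a further CD155 receptor, was at 184.02, 201.77 and 188.03 TPM (191 ± 9.31 TPM), with its highest value in replicate 2. Cd226, the activating receptor that competes for the same ligand, was at 92.78, 86.44 and 103.47 TPM (94.2 ± 8.61 TPM). Its level was highest in replicate 3 and lowest in replicate 2, whereas its CPM, with no scaling for length, was lowest in replicate 1 (94.5) and highest in replicate 2 (105). Tigit (ENSMUSG00000071552.5) lies at chr16:43648867-43664146 and Cd96 (ENSMUSG00000022657.9) at chr16:46035657-46120251, both on the minus strand and each with 1 annotated transcript, of 241 and 602 codons. Cd226 (ENSMUSG00000034028.16) lies at chr18:89176967-89272229 on the plus strand.

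Within libraries, Tigit was below the gene level of the activating receptor Cd226, at 0.960, 0.641 and 0.772 of it in replicates 1, 2 and 3. The mean log2 ratio of levels was -0.36 ± 0.29, a little over 1 SD from equality. This direction depended on the table. With the counts of the second gene table divided by the gene lengths of the larger one, the log2 ratio was 0.71, with Tigit higher. The gene level of Cd226 also sums all its transcripts. Cd226-207 and Cd226-201, the forms with the full 333 codons, were at 20.2 ± 1.08 and 4.14 ± 2.42 TPM, each below Tigit. Cd96 exceeded Cd226 by 2.03-fold (log2 ratio 1.02 ± 0.18) and exceeded Tigit by 2.60-fold (log2 ratio of Tigit to Cd96, -1.38 ± 0.43). Both of those gaps were larger than the spread between libraries. Lag3 was 13.8-fold lower than Tigit (log2 ratio -3.79 ± 0.11), the ratio with the smallest SD of the 6 computed, and both genes were high in replicate 1 and low in replicate 2. Lag3 over Havcr2 was 2.01, 1.40 and 1.11 in the 3 libraries (log2 ratio 0.53 ± 0.43). With the second table that log2 ratio was 1.89 ± 0.39, and that of Cd96 to Cd226 was 1.61.

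The level of Cd226 was spread over many transcripts. Of its 10 annotated transcripts 8 were above 0 in every library. Cd226-207, which holds the full reading frame of 333 codons, took 21.6 ± 2.96% of the level. Cd226-201, also with 333 codons, took 4.55 ± 3.02% (6.40% by estimated counts). Cd226-209, a fragment of 408 bases with 24 codons, took 19.996, 14.8 and 28.0% in replicates 1, 2 and 3 and led in replicate 3. Cd226-205, with 129 codons, took 18.8 ± 2.46%. By estimated counts Cd226-207 held 57.4% and Cd226-209 4.61%, because TPM divides counts by length and weighs a short transcript up. Transcripts annotated for nonsense-mediated decay made 17.1 ± 0.244% of the level, and all protein-coding forms together 75.1 ± 2.62%.

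Cd160, a receptor for HVEM best known from natural killer and cytotoxic cells, was at 26.48, 19.03 and 32.30 TPM (25.9 ± 6.65 TPM), highest in replicate 3 and lowest in replicate 2. The gene (ENSMUSG00000038304.14) lies at chr3:96798763-96829351 on the minus strand. Natural killer markers summed to 3.65 to 4.59 TPM in the same libraries, and CD8 T cell markers to 18.5 to 24.3 TPM. Most of the CD8 sum was Cd8b1, at 17.7, 21.73 and 22.47 TPM in replicates 1, 2 and 3. Cd8b1 was highest in replicate 3, as Cd160 was, and lowest in replicate 1. Cd8a was at 0.79, 2.56 and 1.03 TPM, highest in replicate 2, where Cd160 was lowest. The part of either cell type in the Cd160 level was not tested. Its transcripts start at 2 places 14830 bases apart. Cd160-201, from the downstream start, made 85.4, 79.5 and 86.3% of the level in replicates 1, 2 and 3, a mean of 83.7 ± 3.71%. By estimated counts its share was 68.9%. Cd160-202, from the upstream start and with the same 185 codons, made 5.59, 20.5 and 13.7%. Cd160-203, also from the upstream start, made 8.99% in replicate 1 and was listed at 0 in replicates 2 and 3. Its deposited credibility bounds were 0.613 to 3.39 TPM in replicate 1, with upper bounds of 1.45 and 1.95 TPM in replicates 2 and 3. These ranges overlap, so a difference between libraries in this form is not shown.

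The 250 bases before each Cd160 start are shown because most of the level came from the downstream one. They are RefSeq windows on GRCm38.p6, minus strand, read 5′ to 3′. The upstream window is chr3:96829352-96829601, with 55.2% G or C, and the downstream window is chr3:96814522-96814771, with 47.6%. Each holds 5 CG dinucleotides, beside a median of 6 over 32851 RefSeq windows of that length. Neither holds TATAAA or TGANTCA (the AP-1 consensus) on either strand. Of all the windows 12.4% hold TATAAA and 6.75% hold TGANTCA.
Cd160 upstream start: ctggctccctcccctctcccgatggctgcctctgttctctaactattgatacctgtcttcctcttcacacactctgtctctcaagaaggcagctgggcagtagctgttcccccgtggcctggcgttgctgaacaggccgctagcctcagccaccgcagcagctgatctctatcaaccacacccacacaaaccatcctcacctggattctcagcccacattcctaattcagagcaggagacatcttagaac
Cd160 downstream start: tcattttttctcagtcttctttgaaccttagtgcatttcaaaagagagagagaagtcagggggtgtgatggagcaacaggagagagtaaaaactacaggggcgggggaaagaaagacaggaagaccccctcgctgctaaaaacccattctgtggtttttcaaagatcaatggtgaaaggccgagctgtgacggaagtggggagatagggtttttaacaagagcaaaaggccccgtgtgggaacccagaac
The first exon of the upstream transcripts overlaps Pdzk1 on the opposite strand. Pdzk1 was at 0.213 TPM, from 1, 6.48 and 7.39 estimated counts, but had 44, 49 and 49 counts in the second gene table. No source used here says whether the counting used strand.

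Cd160-203 differs from Cd160-202 by an exon of 132 bases, whose loss leaves 141 codons. The exon is shown in capitals between the bases that flank it in Cd160-201, spanning chr3:96800608-96805549, above the join that replaces it.
Cd160-201: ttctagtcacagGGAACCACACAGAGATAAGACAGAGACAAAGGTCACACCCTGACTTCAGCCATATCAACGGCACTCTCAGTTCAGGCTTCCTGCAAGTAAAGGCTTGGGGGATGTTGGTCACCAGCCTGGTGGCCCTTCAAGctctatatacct
Cd160-203: ttctagtcacagctctatatacct

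The ligand Cd200 and its receptor Cd200r1 were both present. Cd200 (ENSMUSG00000022661.14), at chr16:45382135-45409053 on the minus strand, was at 115, 102.19 and 119.22 TPM (112 ± 8.87 TPM). Cd200r1 (ENSMUSG00000022667.18), at chr16:44765736-44794978 on the plus strand, was at 43.38, 42.48 and 39.31 TPM (41.7 ± 2.14 TPM). Cd200 was lowest in replicate 2 and Cd200r1 in replicate 3, and neither passed the test of a difference between libraries. The ligand exceeded the receptor 2.68-fold (log2 ratio 1.42 ± 0.17), or by 0.69 on the log2 scale with the second gene table. CD200R1 is mainly a receptor of myeloid cells, whose markers summed to 24.2 to 37.6 TPM. Their part in the Cd200r1 level was not tested.

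Of 11 Cd200 transcripts 8 were above 0. Cd200-202 made 53.1 ± 7.19% of the level and 76.3% of the counts. Cd200-210, a noncoding transcript of 281 bases, made 21.4 ± 1.05% of the level but 3.12% of the counts. Cd200-201 made 11.4 ± 2.04%. Cd200-202 and Cd200-201 have 278 and 269 codons and end in different cytoplasmic tails. Their coding ends are shown from the last 12 shared bases to the stop codon, in capitals. Cd200-202 reads through at chr16:45392246-45392292, and Cd200-201 is spliced across chr16:45383450-45392292.
Cd200-202: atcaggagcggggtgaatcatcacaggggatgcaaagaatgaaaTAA
Cd200-201: atcaggagcgggagctcTAA

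Cd200r1-201, the only protein-coding form of Cd200r1, with 326 codons, made 77.5, 81.9 and 77.7% of its level. Cd200r1-203 made 16.2, 16.8 and 18.8% (17.2 ± 1.36%) and is annotated for nonsense-mediated decay, the pathway that degrades messages with an early stop. Both decay-annotated forms together made 20.96 ± 2.52%. An additional exon of 294 bases brings a stop codon that ends at its base 59, which closes the frame after 40 codons. The lines show the last bases of exon 1 and what follows, to the stop codon (in capitals) in Cd200r1-203, chr16:44766058-44785268, and into the next exon in Cd200r1-201, chr16:44766058-44788775.
Cd200r1-203: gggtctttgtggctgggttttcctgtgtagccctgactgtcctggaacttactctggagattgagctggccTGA
Cd200r1-201: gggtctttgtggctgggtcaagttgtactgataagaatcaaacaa

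Vsir, which encodes VISTA, was the highest of the 9 in the larger gene table, at 222.36, 228.11 and 239.49 TPM (230.0 ± 8.72 TPM). In the second table its counts (1286, 1340 and 1267) were below those of Cd96 (2602, 2731 and 2448). By TPM it ranked 682 among the 21951 protein-coding genes. Its level was close to that of Pdcd1, the gene of PD-1 (232 ± 54.6 TPM), and below that of Ctla4 (319 ± 5.43 TPM). Vsir (ENSMUSG00000020101.14) lies at chr10:60346851-60372684 on the plus strand, inside the span of Cdh23 on the opposite strand, which was at 18.7 ± 0.618 TPM. The split among its transcripts was almost equal in the 3 libraries. Vsir-202, with 227 codons, made 45.3 ± 0.331% of the level, Vsir-201, the full-length form of 309 codons, made 33.7 ± 0.138%, and the retained-intron form Vsir-205 made 17.5 ± 1.26%. By estimated counts the order was the other way, with Vsir-201 at 70.5% and Vsir-202 at 24.5%. Vsir-202 starts 2472 bases downstream of Vsir-201. They also differ by 3 bases at a splice junction between chr10:60367782 and chr10:60368546, shown with the additional bases of Vsir-201 in capitals.
Vsir-201: gaggatggacagCAGcaacacccaaggaat
Vsir-202: gaggatggacagcaacacccaaggaat

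**Figure D2:**
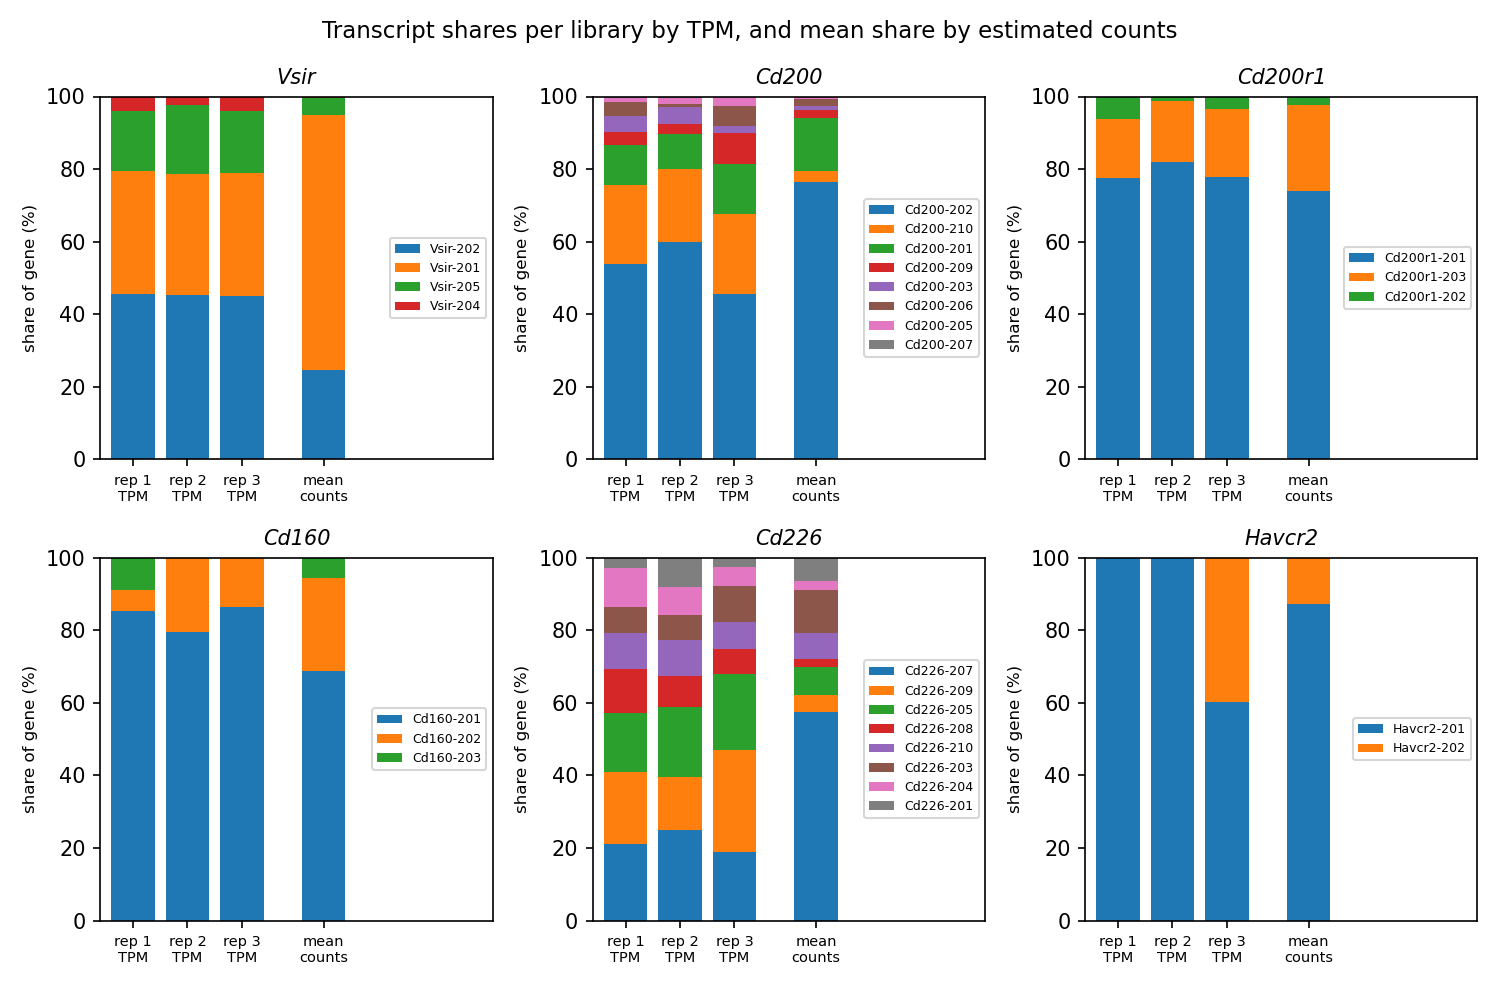
Share (%) of each gene's level assigned to each of its transcripts, for the 6 genes with more than 1 transcript above 0. The 3 left bars of each panel give shares of TPM per library and the right bar the mean share of estimated counts. Vsir-202 leads by TPM (45.3%) and Vsir-201 by counts (70.5%). Havcr2-202 is estimated above 0 in replicate 3 alone, with credibility bounds that overlap those of the other libraries.

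Tigit, Cd200r1, Cd200 and Cd96 share a stretch of 2.47 megabases, chr16:43648867-46120251. Of its 35 protein-coding genes, 21 were at 1 TPM or more throughout. By mean level Cd96 ranked 1, Cd200 2, Tigit 3 and Cd200r1 7 in it, and Btla, an HVEM receptor of the same superfamily, ranked 4 at 74.2 ± 2.51 TPM.

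The libraries were compared per gene by a chi-square test of homogeneity of rounded estimated counts against library totals, with Benjamini-Hochberg adjustment over all 14641 genes tested. By this test 7 of the 9 genes differed between libraries at an adjusted p under 0.05, while 44.9% of all tested genes did. The test knows counting error only, so it can call small differences in abundant genes. Among genes with a mean count of 100 to 1000, 46.3% differed, beside 4 of 4 members. Among those with 1000 to 10000 counts, 64.5% differed, beside 3 of 5 members. The ratio of the highest to the lowest CPM had a median of 1.13 over the 9 genes and 1.22 over all tested genes. The common coefficient of variation between libraries, estimated by edgeR, was 0.115.

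Lag3 and Tigit were both highest in replicate 1 and lowest in replicate 2. Lag3 differed 1.79-fold in CPM between replicates 1 and 2 (adjusted p = 6.16e-05) and Tigit 1.56-fold between the same libraries (adjusted p = 7.58e-18). Pdcd1, a non-member, was also lowest in replicate 2, at 267.64, 169.11 and 259.25 TPM. Havcr2 and Cd160 were likewise lowest in replicate 2 but highest in replicate 3, with ratios of 1.71 (adjusted p = 4.53e-04) and 1.54 (adjusted p = 3.38e-08). Each of these ratios was above the median of 1.22 over all tested genes. That median is not matched for abundance, and counting error alone widens such a ratio at low counts. The summed level of 6 proliferation genes was also lowest in replicate 2 (488, 378 and 417 TPM), as was that of the myeloid markers (34.9, 24.2 and 37.6 TPM). The erythroid sum was highest there (909, 1270 and 1146 TPM). The part of these in the differences was not tested.

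The abundant genes differed by less. Cd96 was 1.13-fold higher in replicate 2 than in replicate 1 (adjusted p = 2.11e-09) and Cd226 1.11-fold (adjusted p = 0.00726). Vsir was 1.08-fold higher in replicate 3 than in replicate 1 (adjusted p = 3.56e-04). Cd200 (1.04-fold, adjusted p = 0.434) and Cd200r1 (1.10-fold, adjusted p = 0.121) did not pass the test. The highest and lowest library of every member was the same with TMM and with DESeq2 scaling. Replicate 2 decided several calls: between replicates 1 and 3 alone, 3 of the 9 differed (Havcr2, Cd160 and Vsir), while 27.7% of tested genes did. Lag3 and Tigit then had adjusted p = 0.0957 and 0.0777.

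**Figure D3:**
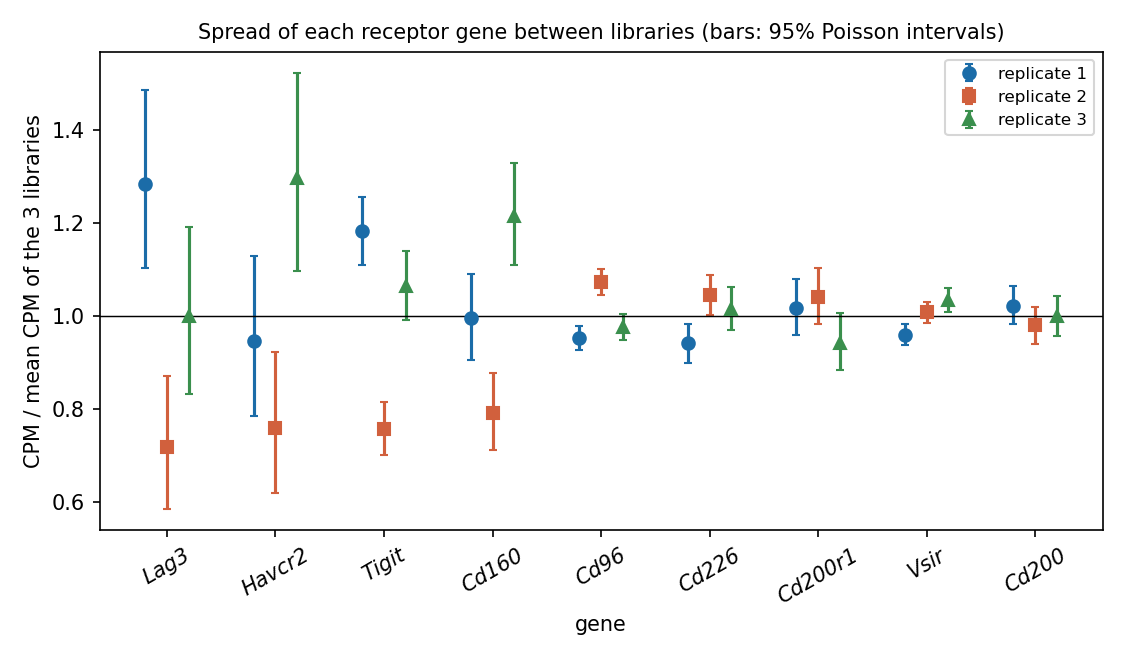
CPM of each gene in each library divided by its mean over the 3 libraries, with bars for 95% Poisson intervals (counting error only), ordered from the largest to the smallest ratio of highest to lowest. Replicate 2 lies lowest for Lag3, Havcr2, Tigit and Cd160, and the 3 libraries lie close together for Vsir and Cd200.

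The second, smaller gene table held 29.3 to 31.1% as many counts as the larger one, and the members differed widely in this share. Lag3 kept 88.1% (155, 96 and 106 counts) and Tigit 70.3% (696, 492 and 578), whereas Vsir kept 19.0% (1286, 1340 and 1267). The others lay between, from 29.97% for Cd200 to 49.6% for Cd200r1. Over genes of both tables with a mean count of 100 to 1000 the median share was 51.1%, with 10th and 90th percentiles of 18.9 and 78.5%. With 1000 to 10000 counts they were 43.0, 13.5 and 70.3%. Lag3 therefore lay above the 90th percentile of genes of its abundance, and the others lay inside the range of theirs. There, 2 of the 9 genes differed between libraries, Lag3 and Tigit, while 23.2% of its tested genes did. Outside the members, the globin genes among the erythroid markers kept 3.13 to 13.8% of their counts and Alas2 93.9%. No source used here says how the reads of the second table were counted.

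The partners of these receptors were drawn from a list of 33 ligands, adaptors and relatives. Of these, 20 reached 1 TPM in every library, 18 averaged at least 10 TPM, and the median was 15.03 TPM. Among the ligands, Selplg (PSGL-1, a partner of VISTA) was highest at 914 ± 47.4 TPM. Lgals9, the galectin bound by TIM-3, was at 239 ± 10.04 TPM and Hmgb1, a nuclear protein that also binds it, at 182 ± 13.4 TPM. Bag6, which binds the tail of TIM-3, was at 41.7 ± 1.58 TPM. Lgals3, a galectin reported to bind LAG-3, was at 29.64, 19.16 and 44.37 TPM, lowest in replicate 2 and highest in replicate 3. Pvr, the CD155 shared by TIGIT, CD96 and CD226, was at 31.0 ± 4.14 TPM, and its relative Pvrig, an inhibitory receptor for Nectin2, was at 22.7 ± 2.91 TPM. In the second gene table Hmgb1 kept 2.10% of its counts, Selplg 12.4%, Lgals9 32.6%, Pvr 34.05%, Lgals3 77.4% and Bag6 84.1%. The order of these levels may therefore depend on the table.

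The other nectin ligands were low. Nectin2 was at 1.17 ± 0.442 TPM, from 25, 26 and 34 estimated counts, and Nectin1, Nectin3 and Nectin4 were between 0.0267 and 0.113 TPM, with 5 to 12 counts each over the 3 libraries. Fgl1, a soluble LAG-3 ligand made by liver, had 1 estimated count over the 3 libraries. Igsf11, a VISTA partner, had none. The HVEM pair was present, with the ligand Tnfrsf14 at 13.3 ± 1.16 TPM and the receptor Btla at 74.2 ± 2.51 TPM.

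Adaptors and processing enzymes were expressed throughout. The phosphatases that act at inhibitory tails were at 326 ± 31.9 TPM for Ptpn6 (SHP-1), 15.03 ± 1.42 TPM for Ptpn11 (SHP-2) and 196 ± 3.63 TPM for Inpp5d (SHIP-1). Of the adaptors through which CD200R1 signals, Dok2 was at 189 ± 12.3 TPM, Dok1 at 49.7 ± 3.15 TPM and Rasa1, the Ras GTPase activator that they recruit, at 32.4 ± 2.92 TPM. The proteases that cut LAG-3 from the surface, Adam10 and Adam17, were at 100.5 ± 6.84 and 70.6 ± 4.31 TPM. Of the 24 listed genes tested, 16 differed between libraries, beside the 44.9% of all tested genes. That share was 46.3% for genes with a mean count of 100 to 1000 and 64.5% with 1000 to 10000, where many of the listed genes lie. Of the 16, replicate 3 was the highest in CPM for 12, replicate 2 for 3 and replicate 1 for 1. The matching split over all genes that differed was not computed, so this one cannot be read as particular to the list. For Pvrig and Inpp5d the highest or the lowest library changed with TMM or DESeq2 scaling. Between replicates 1 and 3 alone 8 of the listed genes differed, beside 27.7% of all tested genes. Crtam, a further receptor of the nectin family, had a low value in replicate 2 (6.37, 1.78 and 6.36 TPM, adjusted p = 1.88e-15).

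**Figure D4:**
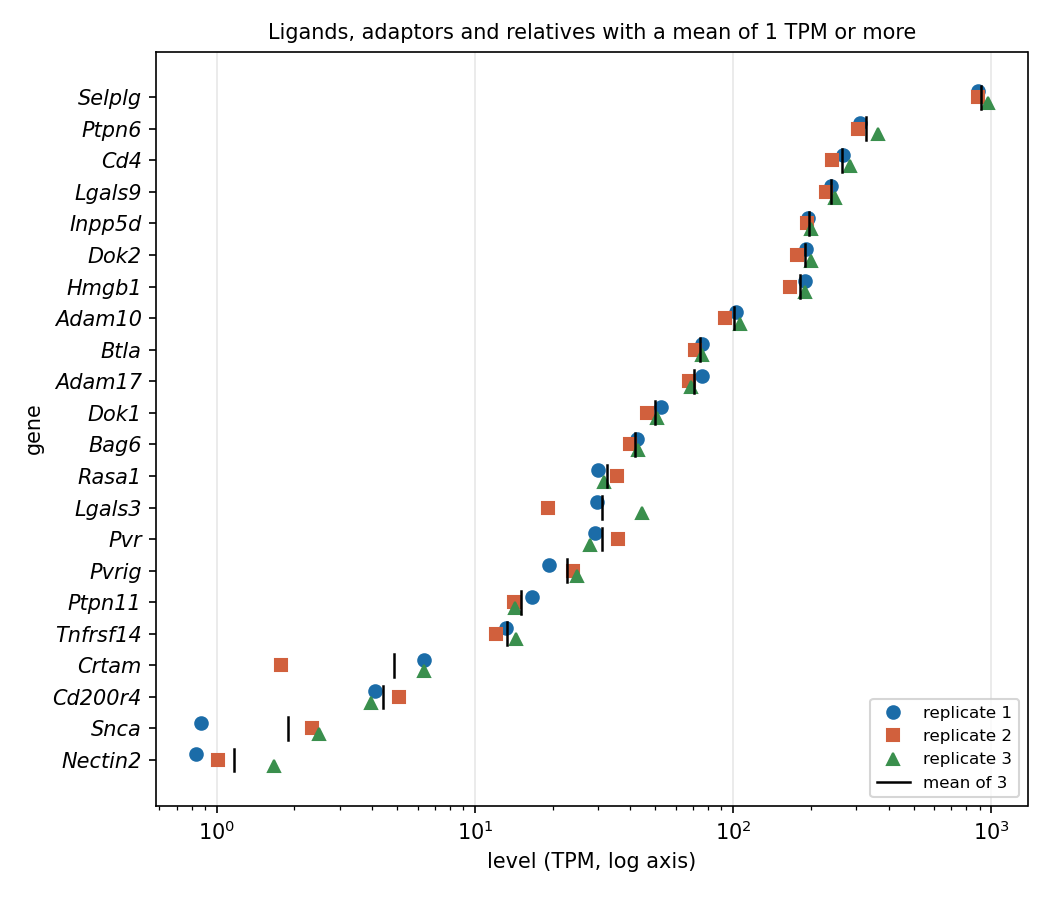
Level in TPM (log axis) of the listed ligands, adaptors and relatives with a mean of 1 TPM or more, with points for the 3 libraries and a bar at their mean. Selplg leads at 914 TPM, and Lgals3 and Crtam have low values in replicate 2.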

How the data were processed

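RNA-seq of polyadenylated RNA, fragmented by shearing per the labels, was available for 3 libraries of 1 biosample. The authors deposited a gene and a transcript table per library on mm10 with GENCODE M21, holding estimated counts (expected counts), TPM, FPKM and TPM credibility bounds in the units of a TPM signal. They also deposited a second gene table of whole-number counts, for 22457 GENCODE M4 genes. Not given in the sources used here are the aligner, quantifier version, strand setting, duplicate handling and counting rule of the second table.

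Rows that name no gene (0.189 to 0.271% of counts) were left out. Levels are deposited TPM. Within-library ratios used log2(TPM + 0.1), which understates changes of low genes. Estimated counts were rounded and compared between libraries by a Pearson chi-square test with 2 degrees of freedom. Genes needed at least 30 counts in sum, p-values were adjusted after Benjamini and Hochberg, and the script was tested on simulated counts. Transcript shares are of summed transcript TPM. Likeness of pattern was not computed, since the 3 libraries are technical. Without molecular identifiers, reads can be copies of one molecule, so intervals cover counting error only. Promoter windows were found for 6 of the 9 genes.

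Named genes were all 9 members, listed partners with a mean of 10 TPM or more or no count, Ctla4, Pdcd1, Foxp3, Il2ra, Cd4 and Cd8a as a scale, and the summed, leading and uncounted cell type markers. Foxp3 was at 90.1 ± 6.76, Il2ra at 352 ± 41.0 and Cd8a at 1.46 ± 0.960 TPM. Crtam, Nectin1 to Nectin4, Fgl1, Alas2, Pdzk1, Cdh23 and the 6 proliferation genes (Mki67, Top2a, Pcna, Mcm2, Mcm6 and Ccna2) were chosen outside this rule after values were seen. Members and lists were chosen with earlier results of these data known. Alternatives were TMM (edgeR 4.0.16) and DESeq2 1.42.0 scaling, count filters, the deviance statistic, the second table, TPM thresholds, FPKM, pseudocounts, counts or coding transcripts only for shares, and leaving out each library. Software was R 4.3.3, matplotlib 3.10.9, scipy 1.17.1, pandas 2.3.3, numpy 2.4.6 and Python 3.11.15.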

Additional observations from a re-analysis of the deposited data

How the results depend on the processing

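The number of the 9 genes that differed between libraries was 7 with TMM or DESeq2 scaling, a count filter of 0 or 100 and the deviance statistic. The count filters changed the share of all tested genes that differed to 20.1 and 51.9%, from 44.9%. The number was 3 to 6 when 1 library was left out, with the 3 reached without replicate 2, and 2 in the second gene table. The shares of all tested genes were then 30.3, 27.7 and 33.99% without replicates 1, 2 and 3, and 23.2% in the second table. Of the listed partners, chosen for this check after seeing the data, 8 to 13 differed with 1 library left out and 10 in the second table, beside 16, to be read against the same shares. The log2 ratio of Tigit to Cd226 turned from -0.36 to 0.71 with the second table, and the step from Vsir to Cd96, a check added after seeing the data, from 0.27 to -1.10. With that table the other ratios between pairs kept their sign, at -0.90 for Tigit to Cd96, 1.61 for Cd96 to Cd226, 0.69 for Cd200 to Cd200r1, 1.89 for Lag3 to Havcr2 and -3.45 for Lag3 to Tigit, the last also -3.58 with a pseudocount of 1 TPM. The cause was not tested. By estimated counts the share was 68.9% for Cd160-201, 57.4% for Cd226-207, 76.3% for Cd200-202, 73.9% for Cd200r1-201 and 24.5% for Vsir-202. Among protein-coding transcripts alone it was 28.8% for Cd226-207, 82.0% for Cd200-202, 100% for Cd200r1-201 and 57.3% for Vsir-202. Of the adjusted p-values of single genes under alternatives, 12 lost the call (0.0596 to 0.580) and 69 stayed on their side of the threshold. The low counts of Lag3 and Havcr2 limit their precision. No paired analysis was possible because there is 1 group.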
